A study of Mus musculus with 56 samples.

Results

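The genes described here are the enzymes, carriers and receptors of fatty acid metabolism that could be picked out by their symbols on a mouse lung microarray. All spots whose gene symbol begins with a family stem of these genes were taken, among them Acad, Acsl, Acaa, Acss, Acac, Acot, Acat, Cpt1, Cpt2, Fabp, Fads, Elovl, Hadh, Scd, Dgat, Agpat and Ppar, and so were Fasn and Lpl. This gave 48 clones of 41 gene symbols among 7625 gene-named clones of 5883 symbols. The rule reads the symbols and no measured value, although it was set with earlier results of these data known. RNA came from the smaller lung, taken whole, of female C57Bl/6J mice that were 7 weeks old and anaesthetized with xylazine and ketamine before an injection of 20 µl into the tail vein. The OA mice received oleic acid, a fatty acid that injures the lung when given intravenously, and the controls received physiological serum. There were 27 OA mice, namely 4, 6, 7, 4, 3 and 3 killed 1, 1.5, 3, 4, 18 and 24 hours after the injection, and 8 serum mice, namely 2, 1, 2, 2 and 1 at 1, 1.5, 3, 18 and 24 hours. The early stage holds 1 and 1.5 hours (10 OA mice), the intermediate stage 3 and 4 hours (11) and the late stage 18 and 24 hours (6). The compound injected is itself a substrate of many of the enzymes listed, so lipid load and lung injury cannot be told apart in this model.

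Long-chain fatty acids enter cells with the help of lipases and binding proteins and are activated to acyl-CoA by acyl-CoA synthetases. Carnitine palmitoyltransferases carry the acyl groups into mitochondria, where acyl-CoA dehydrogenases, hydroxyacyl-CoA dehydrogenases and thiolases shorten them step by step, while fatty acid synthase, elongases and desaturases build longer and less saturated chains in the cytosol and endoplasmic reticulum. In the lung, alveolar type II cells make large amounts of lipid for surfactant. The PPAR receptors are transcription regulators that sense fatty acids, and their coactivators work with them.

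Expression was measured on nylon cDNA membranes hybridized with radioactive targets, and all values are on a log2 scale on which 1 unit is a doubling of signal. The median raw log2 intensity of a microarray ran from 6.75 to 9.36 over 51 OA microarrays and from 5.73 to 8.39 over 9 serum microarrays. The 95th percentile of the 2159 spots without a gene name lay at 9.10 in the OA columns of the authors' table, and 17 of the 48 clones (35.4%) had a mean above it, against 32.8% of all gene-named clones. Clones below this level are called dim here. The median SD between mice within a time point was 0.22 for the 48 clones and 0.22 for all clones, and the median SD between 2 microarrays of 1 mouse was 0.25 and 0.24. Mouse P7L2 at 1.5 hours, measured on 1 microarray, stood apart: its root mean square distance from the mean of its time point was 0.534 over all clones, against 0.16 to 0.355 in the other OA mice. Of 8 listed alveolar type II markers 3 had a clone (Sftpd, Napsa, Slc34a2), and all 3 were above the unnamed-spot level. All 4 adipocyte marker clones (Adipoq, Lep, Cfd, Cidec) were below it, with means from 6.86 to 7.80. Also above it were 1 of 4 macrophage, 3 of 5 neutrophil, 4 of 7 endothelium, 16 of 17 red cell and 1 of 2 muscle clones. The level is therefore no test of whether a cell type is present. A whole lung holds many cell types, so fewer cells of a type and less RNA per cell cannot be told apart.

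Over the 6 time points of OA, few of the fatty acid genes changed, and those that did had their lowest or highest level at 3 or 4 hours. The time courses hold OA mice only, without subtraction of serum, and no serum mouse was killed at 4 hours. Effects of oleic acid and of time since anaesthesia and injection cannot be told apart in them. The elongase Elovl1 fell at the intermediate stage and returned at the late stage, the thioesterase Acot2 rose to 4 hours and then fell, and 1 clone of the dehydrogenase gene Hadhsc was lowest at 4 hours and highest at 24 hours. In limma's moderated F test over the 6 time points, 3 of 48 clones passed a 5% false discovery rate, where 2.01% of all 7625 clones passed (153 clones). Between the stages, 2 of 48 clones passed for intermediate against early (2.57% of all clones), 4 of 48 for late against intermediate (3.19%) and 1 of 48 for late against early (1.65%). The median of the 48 differences was -0.02, 0.04 and -0.04 in these comparisons, and that of all clones lay within 0.003 of 0. Without mouse P7L2 the counts were 2, 1, 6 and 1 of 48. The count of 1 for late against early was 5 without P2L3 at 1 hour, 4 without P4L3 at 1.5 hours, 3 without P9L3 at 3 hours, and 0 without P12L1 or P8L1.

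**Figure D1:**
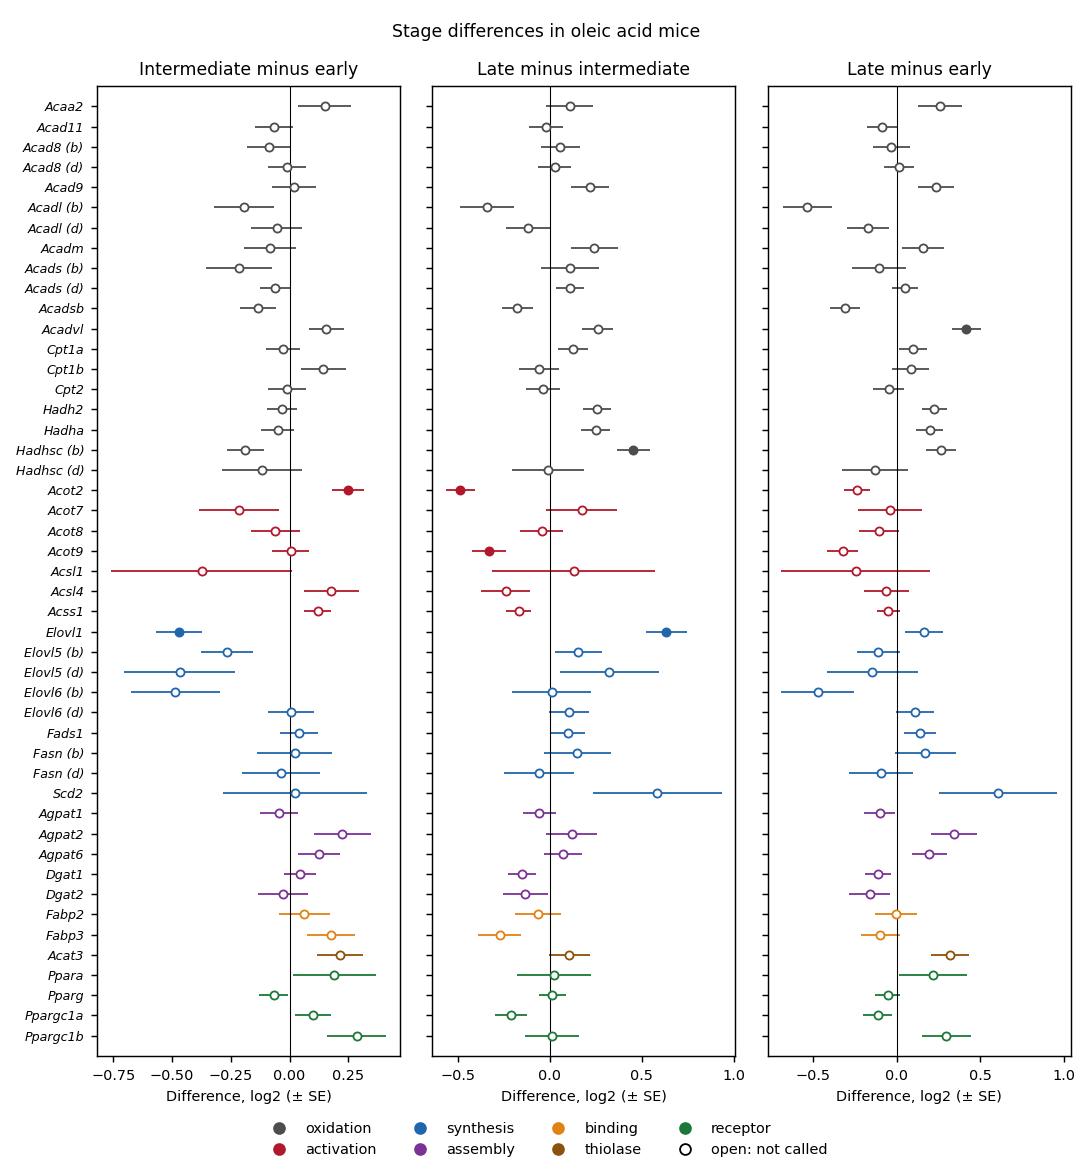
Differences between stages in OA mice for the clones of fatty acid genes, in log2 units with the standard error as bars and 1 panel for each pair of stages. Colours give the role of the gene, filled points passed the 5% false discovery rate, and (b) and (d) mark the brighter and the dimmer clone of a gene; the filled points are Elovl1 and Acot2 on the left, Elovl1, Acot2, Acot9 and Hadhsc in the middle and Acadvl on the right.

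As the data bear on these 3 genes over time, the 250 bases upstream of their annotated starts are given from RefSeq (GRCm38.p6), of which Elovl1 has 2 in the table. Sequences of 30 of the 41 genes were found there. Capitals mark the half-site AGGTCA that nuclear receptors such as the PPARs bind, searched on both strands, so that TGACCT is the same motif on the other strand.
Elovl1, first start, chr4:118427843-118428092, plus strand: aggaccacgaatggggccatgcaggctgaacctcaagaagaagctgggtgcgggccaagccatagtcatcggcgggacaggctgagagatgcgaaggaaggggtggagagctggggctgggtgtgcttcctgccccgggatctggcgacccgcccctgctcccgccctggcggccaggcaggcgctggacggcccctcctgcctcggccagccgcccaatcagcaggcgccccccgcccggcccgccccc
Elovl1, second start, chr4:118429451-118429700, plus strand: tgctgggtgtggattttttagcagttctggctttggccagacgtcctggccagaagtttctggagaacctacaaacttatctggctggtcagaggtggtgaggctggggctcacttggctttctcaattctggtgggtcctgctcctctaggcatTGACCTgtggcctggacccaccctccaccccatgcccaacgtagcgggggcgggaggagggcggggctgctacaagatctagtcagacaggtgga
Acot2, chr12:83987611-83987860, plus strand: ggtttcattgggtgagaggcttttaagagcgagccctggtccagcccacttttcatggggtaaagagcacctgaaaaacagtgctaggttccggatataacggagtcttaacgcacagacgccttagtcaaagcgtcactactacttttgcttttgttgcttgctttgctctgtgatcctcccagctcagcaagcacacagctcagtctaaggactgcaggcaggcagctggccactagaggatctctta
Hadh (Hadhsc), chr3:131272102-131272351, minus strand: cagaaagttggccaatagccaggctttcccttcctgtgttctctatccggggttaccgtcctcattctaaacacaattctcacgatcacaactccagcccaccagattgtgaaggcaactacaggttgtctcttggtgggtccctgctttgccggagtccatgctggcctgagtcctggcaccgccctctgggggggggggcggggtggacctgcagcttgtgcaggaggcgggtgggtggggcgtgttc
Of these windows the second of Elovl1 held 1 half-site, 95 bases before the start, and the others held none. Among all 32851 upstream windows of the table, 14.0% held a half-site, and 8 of the 35 windows of the 48 clones' genes did (22.9%). A direct repeat of the half-site with 1 base between was found in 11 of all windows (0.0335%) and in 0 of the 35. These matches are letters in a window and were not tested against any binding.

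Among the genes of synthesis, elongation and desaturation (9 clones of 6 genes), Elovl1 was the one that passed. Elovl1 is an endoplasmic reticulum enzyme that lengthens saturated and monounsaturated very long acyl chains. Its signal was 11.52, 11.03, 11.48 and 10.87 in the 4 mice at 1 hour and ran from 10.95 to 11.41 at 1.5 hours, with a median of 11.19. At 3 hours it ran from 10.37 to 10.95 with a median of 10.74, and at 4 hours it was 10.68, 10.61, 11.18 and 10.74. At 18 hours it was 11.09, 11.34 and 11.31, and at 24 hours 11.46, 11.41 and 11.63. The 7 mice at 3 hours were all below every late mouse, while the intermediate and early stages overlapped. The fall from early to intermediate was -0.47 ± 0.10 (SE; 1.39-fold, limma, adjusted p = 0.00847), and the rise from intermediate to late was 0.63 ± 0.11 (1.55-fold, adjusted p = 0.00132). The late and early stages differed by 0.16 ± 0.11 (adjusted p = 0.431). Within the possible lots of animals that the mouse names carry, the first difference was -0.54 in lot 2 and -0.44 in lot 3, and the second was 0.69 in lot 1. All late mice belong to lot 1, which has no early mouse, so lot and stage cannot be told apart for late against early. With lot as a block the rise to the late stage was 0.67 ± 0.16 and its adjusted p was 0.059. With the fitted scanner signal the differences were -0.49 ± 0.14 (adjusted p = 0.11) and 0.65 ± 0.16 (adjusted p = 0.045).

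The other clones of this group did not pass in any stage comparison. Scd2, a stearoyl-CoA desaturase that puts the first double bond into saturated acyl chains, was 8.90 in mouse P7L2 and 11.5 to 12.84 in the other 26 OA mice. Its late mice lay between 12.16 and 12.84, with all 3 mice at 24 hours above all 24 others. Late minus intermediate was 0.58 ± 0.35 (adjusted p = 0.451) with P7L2 in the fit and 0.58 ± 0.14 (adjusted p = 0.0238) without it. Within lot 1, which does not hold P7L2, the same difference was 0.26. With lot as a block and all mice in the fit it was 0.30 (adjusted p = 0.9996). Elovl5, which elongates polyunsaturated chains, differed by -0.27 ± 0.11 (brighter clone, adjusted p = 0.224) and -0.47 ± 0.24 (dimmer clone, adjusted p = 0.318) between intermediate and early. Elovl6, which elongates saturated chains made by fatty acid synthase, differed by -0.49 ± 0.19 in its brighter clone (adjusted p = 0.181) and by 0.01 ± 0.10 in its dimmer clone (adjusted p = 0.988). Fads1, the delta-5 desaturase, and Fasn, fatty acid synthase (2 clones), had stage differences between -0.10 and 0.17.

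Acot2 was the clone with the smallest adjusted p among the 48 in any stage comparison. It is a mitochondrial thioesterase that releases free fatty acids from acyl-CoA. Its signal was 10.03, 9.75, 10.06 and 10.11 at 1 hour, 9.99 to 10.19 at 1.5 hours with a median of 10.08, and 9.98 to 10.38 at 3 hours with a median of 10.17. At 4 hours it was 10.57, 10.5, 10.09 and 10.34. At 18 hours it was 9.86, 9.88 and 9.95, and at 24 hours 9.69, 9.5 and 9.9. Every late mouse was below every intermediate mouse. The late stage was lower than the intermediate stage by -0.49 ± 0.08 (1.4-fold, adjusted p = 0.000467), and the same difference within lot 1 was -0.49. With the fitted scanner signal it was -0.51 ± 0.13 (adjusted p = 0.0649). Intermediate minus early was 0.25 ± 0.07 (1.19-fold, adjusted p = 0.0498), which was 0.20 in lot 2 and 0.23 in lot 3, and lost its call when 22 of the 27 OA mice were left out 1 at a time and with lot as a block (adjusted p = 0.121).

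The other genes of activation and thioesters were less variable or less certain. Acot9, a further mitochondrial thioesterase, was dim, and ran from 8.10 to 8.41 in the 6 late mice and from 8.31 to 8.89 in the 11 intermediate mice. Late minus intermediate was -0.33 ± 0.09 (1.26-fold, adjusted p = 0.0457), with an overlap between the stages, and the call was lost without any 1 of 16 mice. With lot as a block it was -0.26 ± 0.12 (adjusted p = 0.632). Acsl1, a long-chain acyl-CoA synthetase, had the largest spread of the 48 clones, with an SD between mice of 0.927 within a time point and of 1.51 between 2 microarrays of 1 mouse, so that its values say little about mice. Acsl4, the synthetase that prefers arachidonic acid, ran from 11.68 to 12.89 and did not pass (F test, adjusted p = 0.356). Acot7, Acot8 and Acss1, a mitochondrial acetyl-CoA synthetase, did not pass either. All 7 clones of the group had a late mean below the early mean, by 0.04 to 0.33, and none of these differences passed in limma (2 had an unadjusted p below 0.05, beside 1570 of all 7625 clones). Of all 7625 clones, 3791 had a late mean above the early mean. Lot and stage cannot be told apart here, and with lot as a block Acss1 was at 0.04 and the other clones of the group below 0.

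The oxidation group (20 clones of 16 genes) held 2 clones that passed. Hadhsc, now named Hadh, encodes the mitochondrial short-chain hydroxyacyl-CoA dehydrogenase. The brighter clone was 9.97, 9.70, 9.87 and 9.91 at 1 hour, 9.62 to 10.03 at 1.5 hours with a median of 9.72, and 9.57 to 10.04 at 3 hours with a median of 9.76. At 4 hours it was 9.57, 9.36, 9.28 and 9.78. At 18 hours it was 9.98, 10.04 and 10.12, and at 24 hours 10.02, 10.19 and 10.16. The late mice were above all 4 mice at 4 hours and overlapped those at 3 hours. Late minus intermediate was 0.45 ± 0.09 (1.37-fold, adjusted p = 0.00373), but 0.25 within lot 1 and 0.30 ± 0.11 with lot as a block (adjusted p = 0.46). The dimmer clone of the same gene showed -0.01 ± 0.20 (adjusted p = 0.986), and its lowest mouse, P3L1 at 3 hours, was at 8.14. The 2 clones of this gene therefore did not show the same course.

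Acadvl, the very long-chain acyl-CoA dehydrogenase of the inner mitochondrial membrane, was the 1 clone that passed for late against early. The clone was dim. Its signal ran from 8.11 to 8.63 in the early mice and from 8.26 to 8.62 in the intermediate mice, and was 8.62, 8.66 and 9.01 at 18 hours and 8.54, 8.73 and 8.80 at 24 hours. The late and early mice overlapped. The difference was 0.42 ± 0.09 (1.33-fold, adjusted p = 0.0125), and 0.26 ± 0.14 (adjusted p = 0.998) with lot as a block. The call was lost without mouse P12L1 at 18 hours (0.36, adjusted p = 0.0673) or P8L1 at 24 hours (0.39, adjusted p = 0.0556). Its F test over the 6 time points gave an adjusted p of 0.0822. Acadl, the long-chain dehydrogenase, did not pass, with late minus early at -0.54 ± 0.15 in the brighter clone (adjusted p = 0.0618) and -0.17 ± 0.13 in the dimmer clone (adjusted p = 0.459).

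The remaining oxidation clones passed in no stage comparison with all mice in the fit. Among them are clones of the dehydrogenases Acadm (medium chain), Acads (short chain, 2 clones), Acadsb (branched short chain), Acad8 (isobutyryl-CoA, 2 clones), Acad9 and Acad11, of the thiolase Acaa2 and of Cpt1a, Cpt1b and Cpt2. Hadha, a subunit of the trifunctional protein, and Hadh2, now named Hsd17b10, also belong to the group. Hadha and Hadh2 were higher at the late than at the intermediate stage by 0.25 ± 0.08 (adjusted p = 0.094) and 0.26 ± 0.08 (adjusted p = 0.0624), and neither passed, although Hadh2 did without P7L2 (adjusted p = 0.0471). The median late minus early difference was 0.07 over the 20 oxidation clones, -0.11 over the 7 activation clones and 0.11 over the 9 synthesis clones. Lot and stage cannot be told apart in these medians. The differences of the 9 synthesis clones ran from -0.48 to 0.61, and from -0.88 to 0.19 with lot as a block.

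The remaining groups gave no call in limma over time or between stages. The glycerolipid assembly enzymes were Agpat1, Agpat2, Agpat6 (now Gpat4), Dgat1 and Dgat2, all of them dim. The binding protein clones were Fabp2, at 13.07 to 14.15 in the OA mice, and Fabp3, at 8.89 to 9.78. The 1 acetoacetyl-CoA thiolase was Acat3, and no clone of Lpl, Acac or Fabp4 was among the 48. The receptors were Ppara and Pparg with the coactivators Ppargc1a and Ppargc1b. At an unadjusted p below 0.05, the F test over time counted 0 of 5 assembly, 0 of 2 binding, 1 of 1 thiolase and 0 of 4 receptor clones, beside 1208 of all 7625 clones. Ppara ran from 10.08 to 12.07 with an SD between mice of 0.415.

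**Figure D2:**
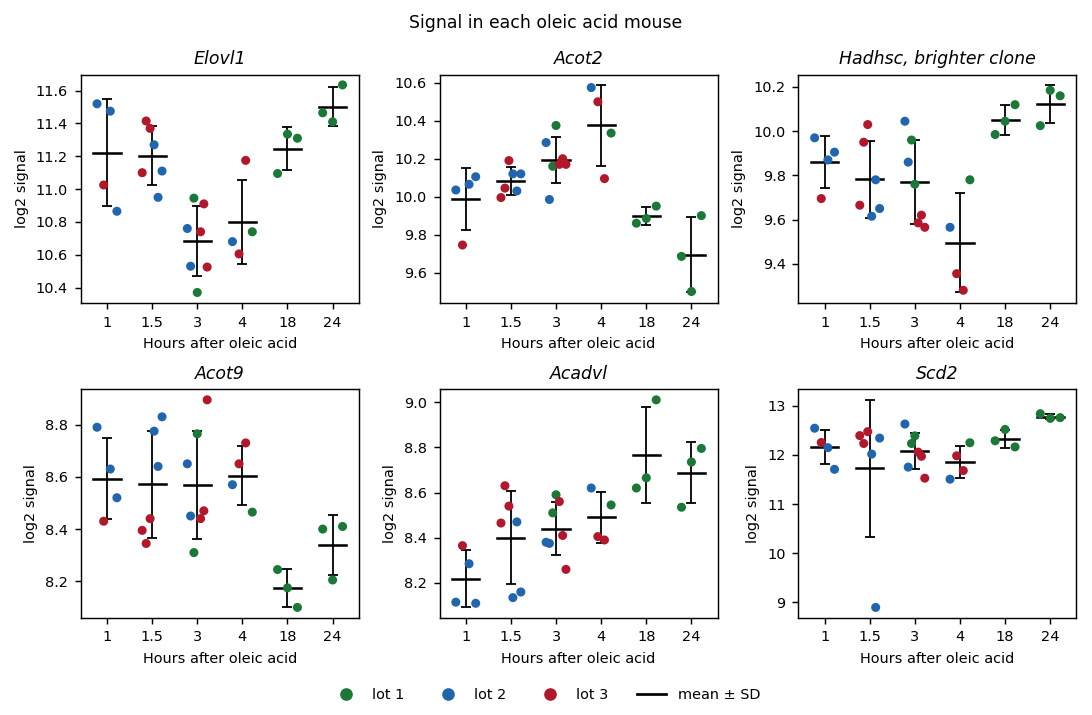
Log2 signal in the authors' table for 6 of the 48 clones in each of the 27 OA mice (mean of the microarrays of a mouse) against hours after injection, coloured by possible lot, with the mean and SD of each time point in black. Elovl1 is lowest at 3 hours (mean 10.68), Acot2 is highest at 4 hours (mean 10.38), and 1 Scd2 value at 1.5 hours lies at 8.90; the vertical axes do not start at 0.

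Among other lipid genes, Angptl4 was high and G0s2 low at the intermediate stage. A list of 101 further symbols of lipid transport, storage, breakdown and their regulators was represented by 44 genes and 56 clones. Of these, 4 clones passed the F test over the 6 time points (2.01% of all clones passed), namely Angptl4, Apoe and both clones of G0s2. Intermediate against early gave 2 higher and 2 lower, and late against intermediate 2 higher and 1 lower. Angptl4, a secreted inhibitor of lipoprotein lipase and a known PPAR target, ran from 8.52 to 8.94 at 1 hour and from 9.38 to 10.49 at 3 hours. By 24 hours it ran from 8.12 to 9.08. All intermediate mice were above all mice at 1, 18 and 24 hours. The rise to the intermediate stage was 0.97 ± 0.15 (adjusted p = 0.000567) and the fall to the late stage was -1.24 ± 0.17 (adjusted p = 0.000109).

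G0s2, an inhibitor of the triglyceride lipase ATGL, went the opposite way. Its brighter clone ran from 9.13 to 10.16 at 1 hour and from 8.10 to 8.99 at 3 hours. It was back at 9.01 to 9.38 by 18 hours. Every intermediate mouse was below every early mouse. Intermediate minus early was -1.01 ± 0.13 (adjusted p = 3.68e-05) in this clone and -1.06 ± 0.17 (adjusted p = 0.00051) in the dimmer one, and the brighter clone rose again by 0.68 ± 0.15 at the late stage (adjusted p = 0.00867). Apoe, the lipoprotein ligand, reached 12.56 to 12.84 at 24 hours against 11.63 to 11.92 at 18 hours (F test, adjusted p = 0.00409). Lpin2, a phosphatidate phosphatase, was higher at the intermediate than at the early stage by 0.65 ± 0.17 (adjusted p = 0.0425). In lot 2 all intermediate mice were above all early mice for Lpin2, while in lot 3 the stages overlapped. The intermediate mice of lot 1, which has no early mouse, were above all other intermediate mice. Whether lot contributes to the Lpin2 difference was not tested. M6prbp1, a lipid droplet coat protein now named Plin3, was higher at the late than at the intermediate stage by 0.48 ± 0.09 (adjusted p = 0.003). Lpin2 and M6prbp1 were dim, as were both clones of G0s2. Differences with lot as a block or with the fitted scanner signal are not given for these other lipid genes.

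**Figure D3:**
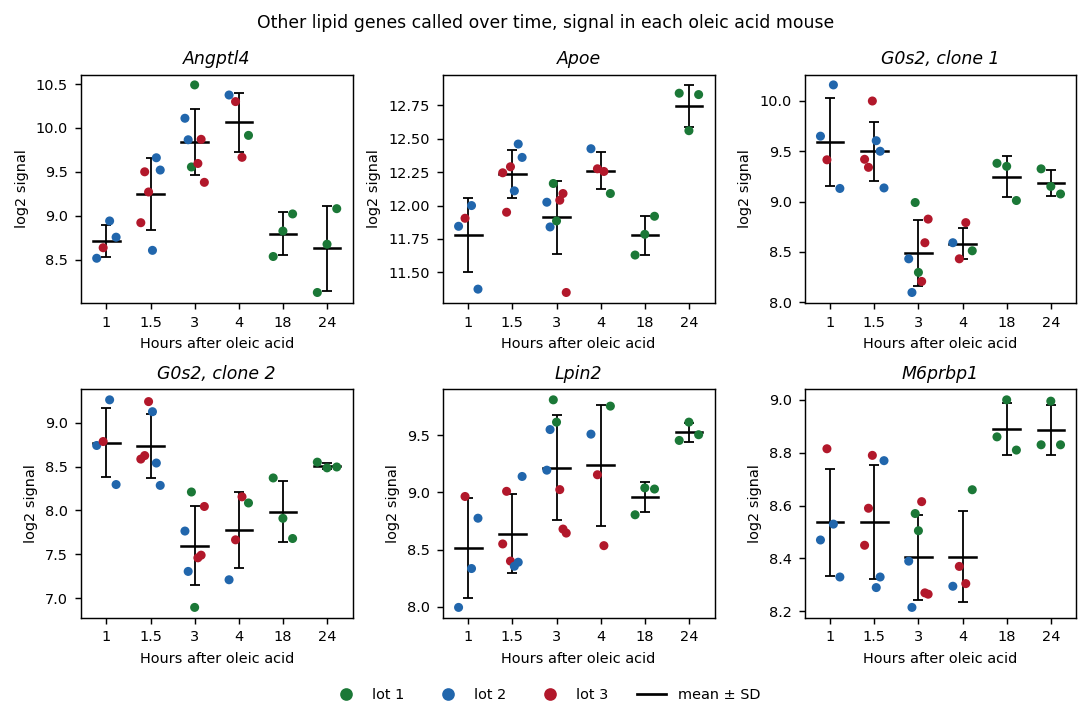
Log2 signal of clones of other lipid genes called over time or between stages in each of the 27 OA mice against hours after injection, with possible lot as colour and mean ± SD in black. Angptl4 is highest at 4 hours (mean 10.06) where both G0s2 clones are low, and Apoe is highest at 24 hours (mean 12.74); the vertical axes do not start at 0.

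Of the 42 clones of the 7 marker lists (alveolar type II, adipocyte, muscle, macrophage, neutrophil, endothelium, red cell), 0 passed limma's F test over time and 6 had an unadjusted p below 0.05, of which 3 were neutrophil clones. The same threshold counted 1208 of all 7625 clones, so the count of 6 does not set the marker lists apart. The mean level of the 5 neutrophil clones ran from 9.61 to 11.2 in the early, 9.82 to 10.69 in the intermediate and 9.58 to 10.16 in the late mice. That of the 4 macrophage clones ran from 8.15 to 8.95, 8.06 to 8.87 and 8.20 to 8.44, and that of the 3 alveolar type II clones from 11.82 to 12.24, 11.73 to 12.22 and 11.94 to 12.23. Their part in the courses of Elovl1, Acot2 and Hadhsc was not tested.

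In the comparison of OA with physiological serum, most clones on the membrane differed, and the fatty acid genes differed as often as the others. For this comparison both treatments were taken from the intensities, quantile-normalized together, and the difference is the mean of those at the 5 time points that have serum mice. Of the 48 clones, 30 (62.5%) passed a 5% false discovery rate in limma, against 61.6% of all clones. Higher in OA were 14 of 48 (29.2%, all clones 34.3%) and lower 16 of 48 (33.3%, all clones 27.3%). With median-centred in place of quantile-normalized microarrays the split was 9 higher and 21 lower, and that of all clones moved from 2619 higher and 2081 lower to 2169 and 2810. The median difference was -0.02 over the 48 clones and 0.05 over all clones. The share of clones called is therefore no result about fatty acid genes.

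Unnamed spots and plant control spots also differed between the treatments. When all spots were fitted together, 60.1% of the 2159 spots without a gene name passed, beside 60.4% of the 48 clones. The median difference of these unnamed spots was -0.21, with quartiles of -0.58 and 0.12. Of the 192 Arabidopsis control spots 99% passed, with a median of -1.08 and quartiles of -1.32 and -0.73. Negative differences near these values, such as those of Hadha, Fasn and Acot7 below, thus also occurred on spots without a mouse gene. Smaller negative differences, such as those of Cpt1a, Agpat1, Agpat6 and the brighter Hadhsc clone, lay between the quartiles of the unnamed spots. Serum and OA microarrays may also differ in hybridization or in membrane batch, which the labels do not give, so these and the treatment cannot be told apart. The spread between serum mice rests on 3 time points with 2 mice each. The 8 serum mice were measured on 9 microarrays and 23 of the 27 OA mice on 2 each, and all groups share 1 estimate of the spread. Over the 1122 genes with 2 clones, the signs of the difference were equal in 60.1%, and among the 7 fatty acid genes with 2 clones in 3 (Acadl, Acads and Fasn). Acad8, Hadhsc, Elovl5 and Elovl6 had clones of opposite sign. In these comparisons a value belongs to a clone on these membranes and not with certainty to a gene.

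**Figure D4:**
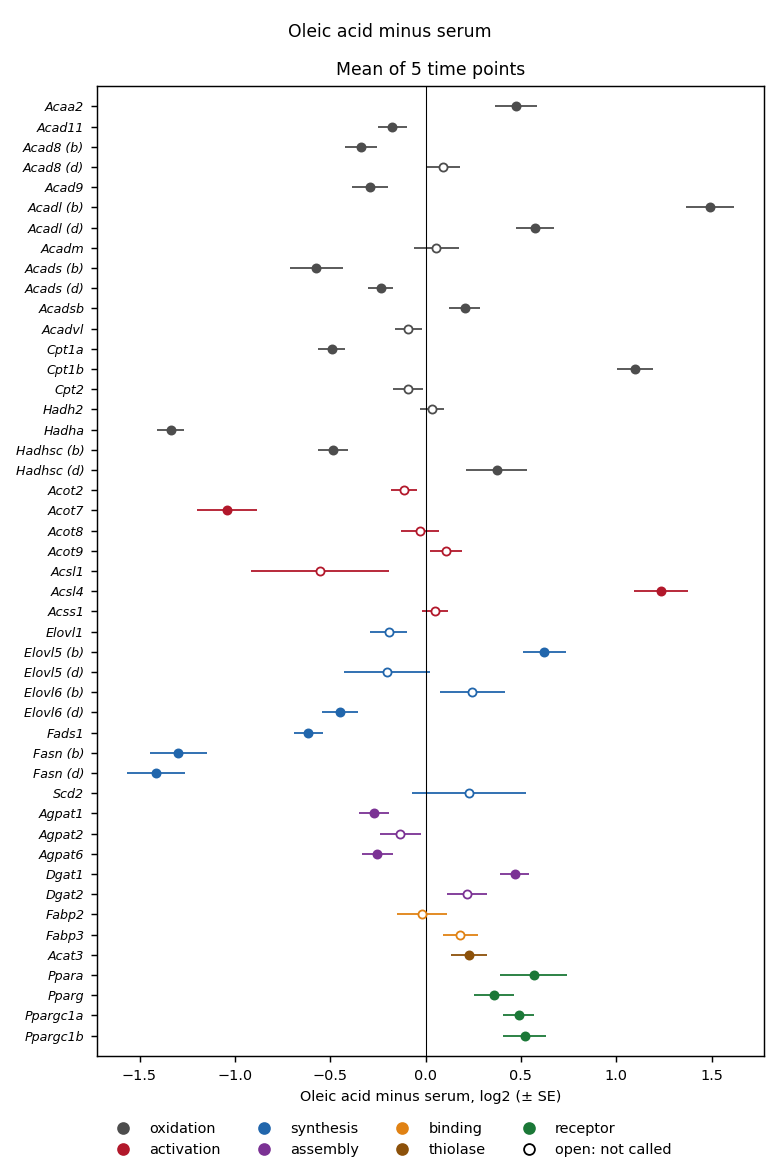
OA minus serum for the clones of fatty acid genes, in log2 units as the mean of 5 time points with its standard error, coloured by role and filled where the 5% false discovery rate was passed. The clones lie on both sides of 0 in the oxidation, activation, synthesis and assembly groups, from -1.41 (Fasn, dimmer clone) to 1.49 (Acadl, brighter clone), while the 4 receptor clones lie between 0.36 and 0.57.

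Among the oxidation clones, 6 were higher in OA, 9 were lower and 5 did not pass, with a median of -0.09. Of all clones, 34.3% were higher and 27.3% lower, which also stands beside the counts of the other groups below. Hadha, the alpha subunit of the mitochondrial trifunctional protein, was 10.66, 11.07, 10.75, 10.71, 10.55, 10.78, 10.78 and 11.15 in the serum mice and ran from 9.20 to 10.02 in the OA mice, with a median of 9.40. No OA mouse reached the lowest serum mouse. The difference was -1.34 ± 0.07 (2.53-fold lower, adjusted p = 4.73e-15), and it was between -1.50 and -1.23 at each of the 5 time points. The lower quartile of the Arabidopsis control spots was -1.32, so treatment and a shift between membranes cannot be told apart here. Acadl went the other way, with 7.84 to 8.78 in serum (median 8.18) and 9.19 to 10.60 in OA (median 9.71) in the brighter clone. The groups did not overlap, and the difference was 1.49 ± 0.13 (2.81-fold higher, adjusted p = 6.31e-11). The dimmer Acadl clone gave 0.57 ± 0.10 (adjusted p = 1.8e-05). These 2 enzymes act in the same mitochondrial spiral and lay on opposite sides of 0.

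Acaa2 was 9.40 to 10.28 in serum and 9.40 to 10.74 in OA, a difference of 0.47 ± 0.11 (adjusted p = 0.000459). The brighter Hadhsc clone was 10.01 to 10.41 in serum and 9.16 to 10.07 in OA, and was lower in OA by -0.49 ± 0.08 (adjusted p = 3.82e-06). Its dimmer clone was 8.89 to 9.64 and 7.99 to 10.07, and was higher in OA by 0.37 ± 0.16 (adjusted p = 0.0447). This last call was lost in 18 of 33 fits without 1 mouse (adjusted p up to 0.0804) and in 4 other settings (up to 0.287), so the opposite signs of the 2 clones rest on a weak call. The dim clones of the carnitine palmitoyltransferases split, with Cpt1b, the muscle form, at 1.10 ± 0.09 and no overlap of the groups, Cpt1a, the liver form, at -0.49 ± 0.07, and Cpt2 at -0.09 ± 0.08, which did not pass.

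In the synthesis group 1 clone was higher in OA, 4 were lower and 4 did not pass, with a median of -0.20. Both clones of Fasn, the enzyme that makes palmitate, were lower in OA. The brighter one was 10.63, 10.50, 10.36, 10.79, 10.09, 10.69, 10.51 and 11.03 in serum and 8.69 to 10.28 in OA with a median of 9.21, and the groups overlapped by the highest OA mouse, P5L3. The difference was -1.30 ± 0.15 (adjusted p = 2.21e-08), and that of the dimmer clone was -1.41 ± 0.15 (adjusted p = 5.28e-09). Both were near the lower quartile of the Arabidopsis control spots (-1.32). Elovl5 was 9.41 to 10.04 in serum and 9.72 to 10.80 in OA in its brighter clone, a difference of 0.62 ± 0.11 (adjusted p = 2.58e-05), while its dimmer clone showed -0.20 ± 0.23 (adjusted p = 0.453). Fads1 was dim and lower by -0.61 ± 0.08, with no overlap of the groups. Elovl1 differed by -0.19 ± 0.10 (adjusted p = 0.0868) and Scd2 by 0.23 ± 0.30 (adjusted p = 0.526).

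Of the activation group, Acsl4 was higher in OA, Acot7 was lower and 5 clones did not pass. Acsl4 was 11.38, 10.71, 11.02, 10.39, 11.25, 10.54, 11.78 and 11.28 in the serum mice and 11.62 to 12.83 in the OA mice with a median of 12.35. A single serum mouse, S7 at 18 hours, lay within the OA range. The difference was 1.23 ± 0.14 (adjusted p = 1.97e-08), and it was 0.38 ± 0.20 (adjusted p = 0.177) with the signal fitted at a calculated spot diameter. Acot7 was dim, at -1.04 ± 0.16. Acot2 did not pass (-0.11 ± 0.07, adjusted p = 0.153).

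All 4 clones of the receptors and coactivators were higher in OA, beside 34.3% of all clones. Ppara, the receptor that drives oxidation genes in liver, was 10.14 to 11.02 in serum with a median of 10.75 and 9.95 to 12.06 in OA with a median of 11.38, so that the groups overlapped widely. The difference was 0.57 ± 0.18 (adjusted p = 0.00656). The dim clones Ppargc1b, Ppargc1a and Pparg showed 0.52 ± 0.11, 0.49 ± 0.08 and 0.36 ± 0.11. With the microarrays centred on their median instead of quantile-normalized, Ppara was at 0.16 ± 0.18 (limma, adjusted p = 0.442). In that setting 3 of the 4 clones passed as higher, beside 2169 of all 7625 clones. With the signal fitted at a calculated diameter 2 of the 4 passed as higher, beside 1223 of all clones. All 4 differences were positive in both settings. The group was singled out among 7 after its values were seen, and 4 clones that share their microarrays are not independent.

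The assembly group had 1 clone higher (Dgat1, 0.47 ± 0.08), 2 lower (Agpat1 and Agpat6) and 2 that did not pass. Acat3 was higher by 0.23 ± 0.10, and neither Fabp2 nor Fabp3 passed. The groups of OA and serum mice did not overlap in 4 of the 48 clones (Acadl, Hadha, Cpt1b and Fads1), against 12.7% of all clones. Of the 56 clones of other lipid genes, 13 were higher and 18 lower in OA (55.4%, beside 61.6% of all clones), among them Prkaa1, a catalytic subunit of the AMP-activated kinase, at 2.17 ± 0.16, and Nr1h2, an oxysterol receptor, at -0.80 ± 0.06 in its brighter clone. By adjusted p these were followed by Rxrg (1.01), Dci (0.93), Vldlr (0.62), Crat (-0.97), the dimmer G0s2 clone (-1.09) and Rxrb (-0.42).

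**Figure D5:**
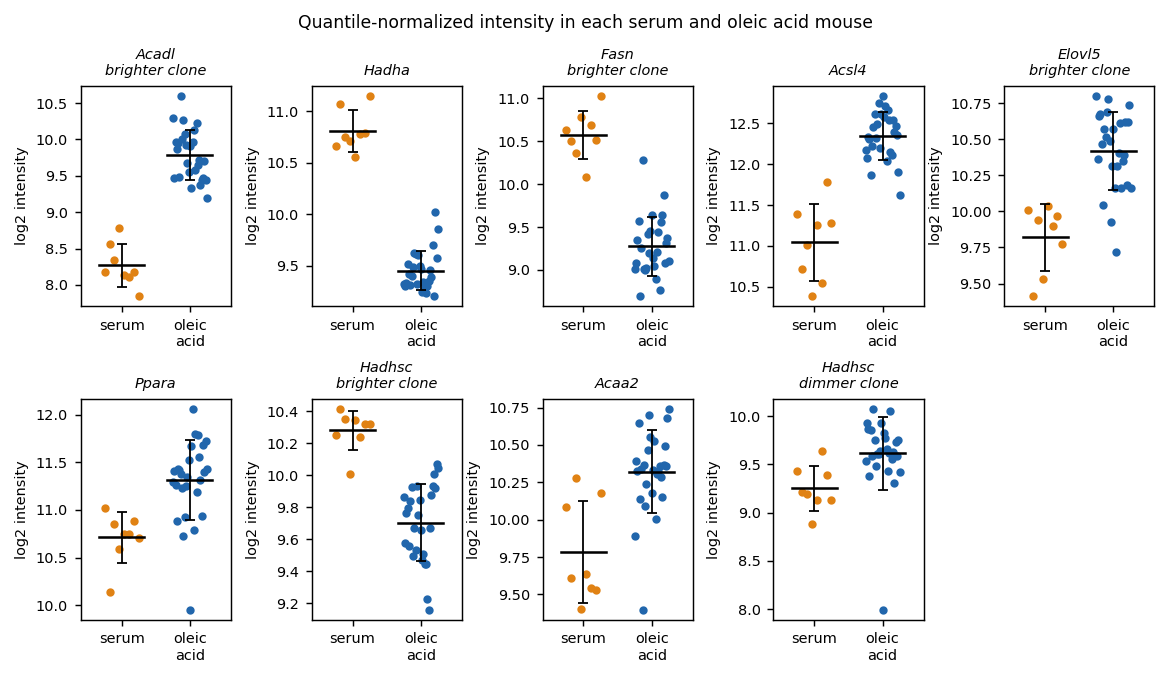
Quantile-normalized log2 intensity of clones above the unnamed-spot level that passed for OA against serum, in each of the 8 serum mice (orange) and 27 OA mice (blue), with mean ± SD. Acadl (brighter clone) and Hadha separate the groups without overlap, Fasn and Acsl4 overlap by single mice, and Ppara, Acaa2 and the dimmer Hadhsc clone overlap widely; the vertical axes do not start at 0.

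Taken singly, the 1 hour comparison called 16 of the 48 clones (30% of all clones), that of 1.5 hours 10 (14.1%), that of 3 hours 22 (40.1%), that of 18 hours 11 (29.2%) and that of 24 hours 12 (22.3%). Whether the difference itself changed between the 5 time points was tested by an interaction in the same fit. None of the 48 clones passed this test in limma at a 5% false discovery rate, and 8 of all 7625 clones did. Of the 42 clones of the marker lists, 23 were called for OA against serum (54.8%), beside 61.6% of all clones. The mean of the 4 macrophage clones was 7.97 to 8.86 in OA and 7.04 to 7.47 in serum, that of the 2 muscle clones was 9.67 to 10.72 and 9.09 to 9.76, and that of the 5 neutrophil clones was 9.48 to 11.13 and 9.76 to 10.48. For the 3 alveolar type II clones it was 11.66 to 12.16 in OA and 11.06 to 12.03 in serum. For the 7 endothelium clones it was 8.78 to 9.43 and 9.02 to 9.28. The 4 adipocyte clones had 6.57 to 7.32 and 6.57 to 7.12, and the 17 red cell clones 12.55 to 12.85 and 12.4 to 12.88. The clones of a list did not move together: OA minus serum was 2.02 for Acta1 and -0.44 for Myh7 of the muscle list, and 2.62 for Chi3l3, 1.11 for Mrc1, 0.86 for Emr1 and -0.32 for Cd68 of the macrophage list, all called. Their part in the differences of the fatty acid genes was not tested.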

How the data were processed

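Spot intensities of 60 MUSV29K membranes were quantified by the authors with Bzscan2 and deposited on a linear intensity scale (image or fitted signal, constant or calculated diameter), and the authors' deposited table holds quantile-normalized log2 values. Whether local background was subtracted from the deposited intensities is unknown here. The log2 columns of 50 OA microarrays were averaged per mouse (27 mice) and fitted with limma 3.58.1 in R 4.3.3, with a moderated F test, stage contrasts that weight the time points equally, and Benjamini-Hochberg adjustment over 7625 gene-named clones at 5%. The table holds 1 serum column per time point, made by the authors from another signal, so OA and serum were compared on the intensity (image, constant diameter, floor 1, log2, quantile-normalized over 60 microarrays), averaged per mouse. One 1.5 hour microarray of an unresolved mouse was left out, and the P7L3 microarray whose labels name both 3 and 1.5 hours was used at 3 hours. The assignment of 9 serum microarrays to 8 mice follows the study's design. The lot is the number after L in the mouse name, whose meaning the labels do not give. Controls and unnamed spots were normalized with the rest, left out of the tests of clones, and tested in 1 separate fit over all spots. Of the 41 symbols, 38 are current in RefSeq and 3 were renamed. The brighter of 2 clones stands for a gene. Some genes are counted but not reported here. Every other gene symbol was named, and full values were given for clones called over time or between stages and for called clones above the unnamed-spot level in OA against serum. The clones, lists and tests were chosen with earlier results of these data known. The scripts were tested on simulated data. The number of mice limits the precision. Alternatives covered the signal, normalization, floor, dim clones, lot, microarrays as units, brightness, labels and single mice.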

Additional observations from a re-analysis of the deposited data

Results flagged for a closer look

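Within the OA time points of 4 to 7 mice, 1 mouse stood far from the others by the gap to its nearest neighbour in 12 of 192 clone and time point groups, and chance gives about 1 in 20. In mouse P8L3, Acsl1 at 3 hours was 6.43 against 7.69 to 8.07 in the others. In mouse P5L3, Acaa2 at 1.5 hours was 9.52 against 10.2 to 10.48 in the others, Fasn brighter clone at 1.5 hours was 10.39 against 8.78 to 9.38 in the others and Fasn dimmer clone at 1.5 hours was 9.9 against 8.16 to 8.7 in the others. In mouse P4L1, Acad11 at 4 hours was 7.02 against 6.5 to 6.51 in the others. In mouse P7L2, Cpt1a at 1.5 hours was 8.43 against 8.18 to 8.25 in the others and Scd2 at 1.5 hours was 8.9 against 12.02 to 12.47 in the others. In mouse P11L2, Hadh2 at 4 hours was 9.43 against 9.34 in the others. In mouse P4L2, Hadha at 1 hour was 9.63 against 9.43 to 9.46 in the others. In mouse P3L1, Hadhsc dimmer clone at 3 hours was 8.14 against 9.72 to 10.04 in the others. In mouse P2L3, Elovl6 brighter clone at 1 hour was 8.13 against 8.67 to 8.78 in the others. In mouse P12L3, Elovl6 brighter clone at 4 hours was 8.77 against 7.87 to 7.95 in the others. Mouse P7L2 is the one that stood apart over all clones, and both Fasn clones and Acaa2 stood apart in mouse P5L3. No cause was tested.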

How the results depend on the processing

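In the settings below, the called stage differences of Elovl1, Acot2, Acot9, Acadvl and the brighter Hadhsc clone kept their direction, as did the differences between OA and serum for which full values are given. Stage differences that were not called did not all do so when lot was a block. For late minus intermediate, the dimmer Elovl5 clone went from 0.32 to -0.32 and the brighter Fasn clone from 0.15 to -0.15. The dimmer Hadhsc clone went from -0.01 to 0.38 in that comparison, and the dimmer Elovl6 clone from 0.01 to -0.09 for intermediate minus early. Of the 48 clones, the counts over the 6 time points, for intermediate against early, late against intermediate and late against early were 3, 2, 4 and 1. They became 0, 0, 1 and 0 with the fitted scanner signal at constant diameter, where 62 of all clones passed over the 6 time points in place of 153. With lot as a block the stage counts were 1, 1 and 0 and the count over the 6 time points was 2 (Acot2 and Elovl1). With microarrays as units and the mouse as a random block the counts were 6 over the 6 time points and 4 for late against early, and 4 for late against early with the unresolved microarray added. Leaving out single OA mice gave 2 to 4, 1 to 2, 3 to 6 and 0 to 5 clones; the highest over time was without P4L3, that of 6 without P7L2 and that of 5 without P2L3. The F test of the brighter Hadhsc clone lost its call without any 1 of 21 mice (adjusted p 0.023 to 0.136), while those of Elovl1 and Acot2 kept theirs (0.00312 to 0.0266 and 0.00307 to 0.0461) but lost them with the fitted signal (0.183 and 0.247). Against serum the count of 30 became 12 with the signal fitted at a calculated diameter, where 24.4% of all clones passed, and 10 of 17 above the unnamed-spot level, and it was 26 to 30 with single mice left out. Median-centring moved the median of all clones from 0.05 to -0.06, and Ppara, Acaa2 and the dimmer Hadhsc clone lost their calls there, and with a calculated diameter Ppara, Acaa2, Acsl4 and the brighter Hadhsc clone did. The clones Acadl, Hadha, Fasn and Elovl5 (brighter clones where there are 2) passed in each setting that gave a test. The authors' table gave no test for serum, since it has 1 serum column per time point. No paired analysis was possible because each mouse was killed at 1 time point after 1 injection. Dim clones and 1 or 2 serum mice per time point limit the precision; the cause of these shifts was not tested.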
